A study of Mus musculus with 6 samples.

Results

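Many mouse zinc finger genes are named with the symbol Zfp and a number. Here 225 of them were followed through libraries labelled as meiotic (pachytene) cells. They were chosen by their symbol (Zfp and digits alone, in GRCm38), as protein-coding genes, and selected on a mean of at least 1 FPKM (fragments scaled by exon length in kilobases and by a size factor of each library) over the 6 libraries. Zfp541 was left out by the rule. The deposited values hold 365 protein-coding genes with such a symbol among 54532 genes in all, so that 225, or 61.6%, were kept, 139 lay below the mean of 1 FPKM and Zfp541 is the remaining gene. Of the 139, 3 were listed at 0 in every library. Since measured levels chose the genes, the levels themselves are given as a description.

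The study purified pachytene cells, the stage of meiotic prophase at which homologous chromosomes are fully paired, from mouse testis at about postnatal day 80 by STA-PUT, a separation of cells by sedimentation in a gradient. Wild-type (WT) mice were compared with mice that lack MAPS (genotype MAPS KO, here KO) and with mice labelled as overexpressing MAPS in the knockout background (MAPS EE-KO, here EE_KO, which also carries the deletion), in order to follow the silencing of the sex chromosomes in meiosis. Each group had 3 mice of one genotype and 2 libraries, from 2 independent experiments. What the letters EE stand for, what drives the MAPS transgene or allele in EE_KO, and whether a library pools mice are not given by the labels, and nothing says that the libraries of a group came from separate animals. Every p-value below therefore measures the spread between these libraries alone, which may be technical.

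Most Zfp proteins bind DNA through tandem C2H2 zinc fingers, each a short fold in which 2 cysteines and 2 histidines hold a zinc ion. Many also carry a KRAB domain, which recruits the corepressor Trim28 (KAP1) and through it the methyltransferase Setdb1 and heterochromatin protein 1, and such proteins are best known for silencing retroelements and protecting imprinted regions. Many of their genes multiplied by local duplication and lie in clusters of near copies. A minority of Zfp symbols belong to proteins of other kinds, which bind RNA, ribosomes, spindle proteins or the cytoskeleton.

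The protein sequences translated from GENCODE M21 transcripts showed these fingers and domains. At least 1 C2H2 pattern was found in 219 of the 225 proteins (97.3%), against 2.14% of 11922 other protein-coding genes tested, and the median protein had 10 of them and the largest number was 36. A KRAB-like pattern was found in 89 (39.6%, against 0.210% of the other genes). The 6 with no C2H2 pattern include Zfp36, whose fingers are of the CCCH type that binds RNA, and Zfp185, a LIM domain protein of the actin cytoskeleton.

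The gene that departed most between EE_KO and WT was Zfp990, and the start of its coding sequence is shown with those of neighbours on chromosome 4 because all of them encode a KRAB domain there and are close copies. The lines give coding bases 1 to 180 from GENCODE M21 transcripts (GRCm38), 5′ to 3′, and capitals mark bases that differ from Zfp990.
Zfp990: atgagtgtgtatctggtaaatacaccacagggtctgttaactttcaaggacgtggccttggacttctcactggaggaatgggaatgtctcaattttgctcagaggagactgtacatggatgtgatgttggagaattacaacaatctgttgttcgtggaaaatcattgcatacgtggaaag
Zfp992: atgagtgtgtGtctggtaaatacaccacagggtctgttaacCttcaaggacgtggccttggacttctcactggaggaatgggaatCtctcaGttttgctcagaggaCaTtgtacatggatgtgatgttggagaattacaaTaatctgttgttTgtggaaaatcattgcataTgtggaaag
Zfp993: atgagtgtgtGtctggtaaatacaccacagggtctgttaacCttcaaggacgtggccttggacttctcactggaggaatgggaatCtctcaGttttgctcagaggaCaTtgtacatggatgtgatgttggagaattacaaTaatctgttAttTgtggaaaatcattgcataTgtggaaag
Zfp982: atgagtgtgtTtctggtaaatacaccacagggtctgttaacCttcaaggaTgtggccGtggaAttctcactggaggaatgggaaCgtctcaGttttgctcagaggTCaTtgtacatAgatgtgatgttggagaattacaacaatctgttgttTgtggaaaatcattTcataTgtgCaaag
Zfp981: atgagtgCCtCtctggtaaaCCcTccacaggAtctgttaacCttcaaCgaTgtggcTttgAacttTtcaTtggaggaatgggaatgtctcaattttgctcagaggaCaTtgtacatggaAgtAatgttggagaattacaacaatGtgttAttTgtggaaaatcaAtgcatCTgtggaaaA
Over these bases Zfp992 differed from Zfp990 at 9 positions, Zfp993 and Zfp991 at 10 each, Zfp982 at 15 and Zfp981 at 25. Such copies also limit the measurement: of all 100-base stretches of the Zfp993 and Zfp991 transcripts, 71.9% and 70.3% occurred in another gene as well, so that the division of their reads between genes is uncertain. The share was 0 for 136 of the 225 genes and above 25% for 8. It was 28.6% for Zfp992 and 3.60% for Zfp990. It depends on the stretch, and with 50 bases it was 86.8% for Zfp993, 82.2% for Zfp991, 43.0% for Zfp992 and 29.1% for Zfp990, whose closest match was Zfp987. The labels give no read length.

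The genes at the other extremes had promoters rich in CG dinucleotides. The windows from 250 bases before to 50 bases after the annotated start are shown for the largest rise in KO (Zfp36), the largest fall with a KRAB-like pattern (Zfp39) and the largest rise on the X chromosome (Zfp275), from RefSeq on GRCm38.p6, each 5′ to 3′ on the gene's own strand with CG in capitals. They lie at chr7:28379179-28379478 (minus strand), chr11:58904176-58904475 (minus strand) and chrX:73342370-73342669 (plus strand).
Zfp36: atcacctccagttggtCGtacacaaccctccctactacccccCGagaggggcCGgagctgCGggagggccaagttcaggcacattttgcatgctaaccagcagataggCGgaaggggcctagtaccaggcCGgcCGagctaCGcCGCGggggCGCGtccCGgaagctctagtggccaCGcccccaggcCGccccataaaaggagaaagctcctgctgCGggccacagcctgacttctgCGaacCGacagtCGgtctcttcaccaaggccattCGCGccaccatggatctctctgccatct
Zfp39: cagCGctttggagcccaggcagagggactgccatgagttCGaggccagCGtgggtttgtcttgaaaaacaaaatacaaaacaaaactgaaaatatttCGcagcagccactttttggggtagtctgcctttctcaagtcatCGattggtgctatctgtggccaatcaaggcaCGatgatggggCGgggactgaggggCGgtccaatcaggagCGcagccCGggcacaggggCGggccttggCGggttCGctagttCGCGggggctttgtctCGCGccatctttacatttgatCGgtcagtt
Zfp275: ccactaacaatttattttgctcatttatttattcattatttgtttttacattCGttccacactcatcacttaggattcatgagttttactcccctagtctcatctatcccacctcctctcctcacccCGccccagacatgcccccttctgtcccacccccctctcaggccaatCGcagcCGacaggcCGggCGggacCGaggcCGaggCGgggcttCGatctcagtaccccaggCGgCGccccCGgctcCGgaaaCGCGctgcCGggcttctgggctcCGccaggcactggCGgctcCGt
These windows hold 21, 18 and 20 CG dinucleotides. Over the 185 Zfp genes with a window in the table the median was 17, against 7 over all 32851 windows. Those windows were not limited to the genes tested, so the difference describes no trait particular to Zfp genes. The same holds for the motif shares below. The 58 matched genes that were higher in KO had a median of 16.5 and the 79 that were lower had 17.

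Searched on both strands, the cyclic AMP response element TGACGTCA occurred in 4 of the 185 windows (2.16%, against 1.79% of all windows). The NRF1 motif occurred in 5 (2.70%, against 0.971% of all windows), a difference that was not tested and rests on few windows. The MYB motif AACNGNC occurred in 67 (36.2%, against 32.8%), in 39.7% of the windows of genes higher in KO and in 29.1% of those lower in KO. These are matches of letters and describe no bound site.

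The cells were first checked against their label. The gene that encodes MAPS, 1700102P08Rik, stood at 157 and 150.2 FPKM in WT, 7.97 and 10.1 in KO, and 108.6 and 82.2 in EE_KO. The summed level of 8 pachytene markers was 5636 and 5099 FPKM in WT and 4859 and 5226 in EE_KO, but 179 and 208 in the libraries labelled KO pachytene cells, and all 8 were lower in KO. Sums of 10 Sertoli cell markers were 303 and 306 in WT, 4211 and 3987 in KO, and 486 and 262 in EE_KO, and sums of 8 Leydig cell markers ran from 68.3 to 118 in WT, from 2113 to 2203 in KO and from 93.5 to 185 in EE_KO. The 8 spermatogonial markers summed to between 20.8 and 22.4 in WT and between 188 and 229 in KO, the 7 leukocyte markers to between 3.46 and 3.75 in WT and between 14.5 and 20.9 in KO, and the 8 spermatid markers to between 1458 and 3114 in WT and between 11.1 and 11.8 in KO. All 10 Sertoli and 8 Leydig markers, and the 6 spermatogonial and 3 leukocyte markers that could be tested, rose in KO, and all 8 spermatid markers fell. Of the markers too low to be tested, Csf1r, Ptprc and Nanos3 read higher in KO, while the macrophage markers Adgre1 (means of 0.473 in WT and 0.374 in KO) and Cx3cr1 (0.673 and 0.306) and the spermatogonial marker Gfra1 (1.08 and 0.433) read lower. These markers moved together with every result of KO against WT and EE_KO against KO below, and their part in those results was not tested. In such bulk samples fewer cells of a type and less RNA per cell cannot be told apart. Reads on genes, recovered from the FPKM, numbered 14178387 to 16565238 per library. The library size implied by the FPKM was 1.80e+07 and 1.74e+07 in KO, above the reads on genes of these libraries. In WT (1.40e+07 and 1.51e+07) and EE_KO (1.46e+07 and 1.50e+07) it was below them. The FPKM were therefore not scaled by these reads alone, and how the factor was set is not given. The FPKM summed to 251584 and 232716 in KO, below the 315680 to 335071 of the other 4 libraries, so that TPM, which sets each sum equal, raises KO against the rest. 1 read over a 2 kb transcript was worth 0.0278 to 0.0357 FPKM.

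As a group the Zfp genes held nearly the same share of the transcriptome in every library. Their sum took 0.594% and 0.575% of the FPKM total of the WT libraries, 0.586% and 0.580% of KO, and 0.589% and 0.592% of EE_KO, so that the WT pair spanned the values of the other 4 libraries. The median gene stood at 3.55 and 3.52 FPKM in WT, 3.36 and 2.97 in KO, and 3.85 and 3.70 in EE_KO. In all, 160 of the 225 were above 1 FPKM in every library, and none was at 0 in any.

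Beneath that even sum the individual genes differed widely between KO and WT. By limma on log2(FPKM + 1), with a Benjamini-Hochberg threshold of 0.05 set over 15368 genes, 75 of the 225 rose in KO (33.3%, where 38% of all genes tested did) and 97 fell (43.1%, against 48.1%), and 53 did not pass the test. Either way 76.4% were called, against 86.2% of all genes. A change of at least 2 on the log2(FPKM + 1) scale was called upward for 16 (7.11%, against 13.7%) and downward for 24 (10.7%, against 20.9%). The libraries of KO and WT did not overlap for 204 genes (90.7%, against 93.4%). The median log2 change was -0.14, with quartiles of -1.20 and 0.81, beside -0.29 over all genes and 0.02 over protein-coding genes. The sign of that median depends on the scaling, since it was 0.20 with TPM and 0.17 with quantile scaling, which also moved the median of all genes to 0.08 and 0.03. Relative to all genes the Zfp median lay 0.15 higher in the deposited scale, 0.12 with TPM and 0.13 with quantile scaling, but 0.14 lower with no filter and 0.24 lower among genes with a mean of at least 5 FPKM. It was also lower than that of protein-coding genes. The split of calls became 102 up and 79 down with TPM, and 95 up and 81 down with quantile scaling.

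A gene could reach the mean of 1 FPKM through KO alone. Of the 225, 18 were below 1 FPKM in WT and in EE_KO and passed through KO. All 18 were called higher in KO, where the rule fixed the direction but not the call. At the limit, the genes just inside were Zfp334, Zfp975 and Zfp825 at means of 1.01, 1.03 and 1.03 FPKM, and those just outside were Zfp719, Zfp68 and Zfp846 at 0.987, 0.965 and 0.962. Among the 139 below the limit, 27 had a KO mean of at least 1 FPKM, 5 a WT mean and 2 an EE_KO mean of at least 1. The shares of rises and falls above therefore describe the 225 genes and no wider set.

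The calls were also counted by level in WT, a description that shares the WT libraries on both sides and in which the limit of 1 FPKM shapes the lowest class. Of 49 genes at 10 FPKM or more in WT, 42 fell in KO and 2 rose (Zfp445 and Zfp771), with a median log2 change of -1.57. Of 107 genes between 2 and 10 FPKM, 49 fell and 30 rose (median -0.29), a split that was 38 and 43 with TPM (median 0.04). Of 69 genes below 2 FPKM, 6 fell and 43 rose (median 0.76), but these include the 18 whose direction the rule fixed. Without them 6 of 51 fell and 25 rose (median 0.41). Over all genes tested 38% rose and 48.1% fell. Their median also lay lower among higher genes, at -0.57 with a mean of at least 5 FPKM against -0.29. Shares of all genes at the same WT level are not given here, so these counts describe no trait particular to Zfp genes.

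**Figure D1:**
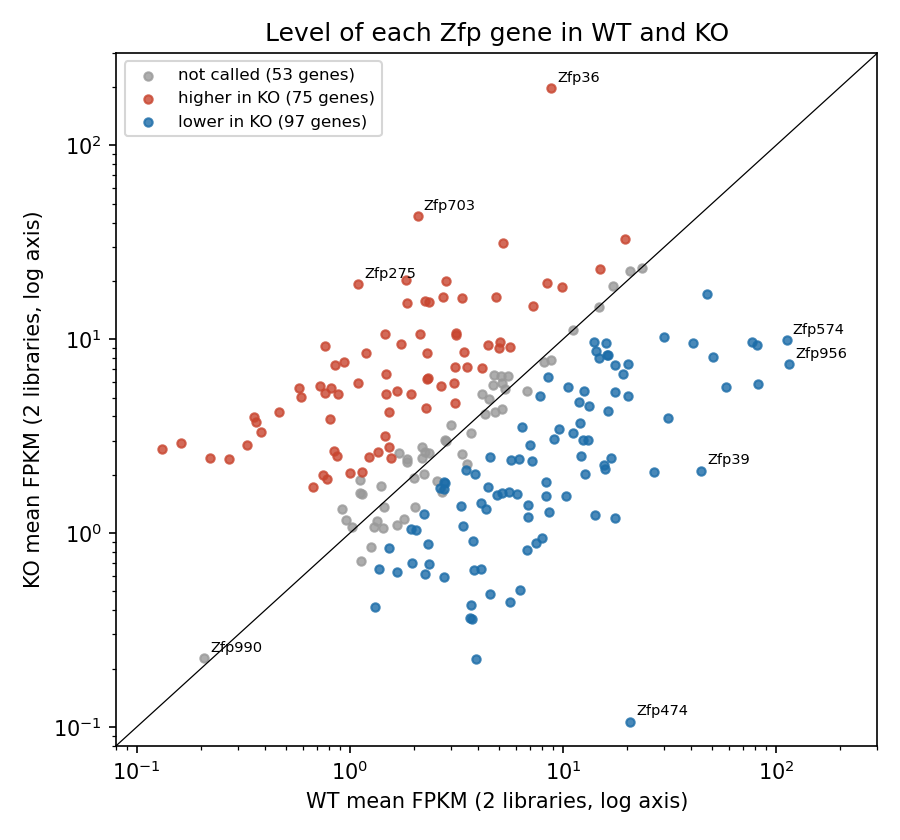
Mean FPKM of each of the 225 Zfp genes in WT (horizontal log axis) and KO (vertical log axis), 2 libraries each, with 75 genes called higher in KO in red, 97 called lower in blue and 53 not called in grey; the line marks equal levels. Genes of 10 FPKM or more in WT lie mostly below the line, and Zfp36 lies far above it.

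The most abundant Zfp genes of WT pachytene cells were among the largest falls. Zfp956, on chromosome 6 (chr6:47953390-47965300, plus strand), was the highest of all in WT, at 129 and 101 FPKM. It stood at 7.41 and 7.45 in KO and at 101 and 105 in EE_KO, so that both KO libraries were below all others (log2 change -3.77, limma's standard error, SE, 0.13, adjusted p = 1.36e-07). Zfp574 (chr7:25072567-25083492, plus strand), with 18 C2H2 patterns, stood at 120.2 and 104 in WT, 9.89 and 9.83 in KO, and 105 and 109.6 in EE_KO (-3.38, SE 0.11, adjusted p = 1.04e-07). Zfp654 (chromosome 16) and Zfp110 (chromosome 7) followed at WT means of 81.5 ± 9.39 and 77.0 ± 7.95 FPKM (SD, n = 2), and fell to 9.30 ± 0.546 and 9.69 ± 0.849. The 5 highest in WT, which also include Zfp35, all fell by at least 2.87 on the log2 scale.

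Genes first described in germ cells made up much of the rest of that end. The list, chosen with earlier results of these data known, held Zfp35, Zfp37, Zfp105, Zfp474 and Zfp628, and also Zfp29, which was not matched. Of the 5 matched genes (median -3.07) 4 fell, where 48.1% of all genes tested fell. Zfp628 did not pass the test, though it was called higher with TPM (0.63) and with quantile scaling (0.37). Zfp474 stood at 16.1 and 25.2 FPKM in WT, 0.117 and 0.0965 in KO, and 17.7 and 19.0 in EE_KO. That was the largest fall of the 225, from 20.6 ± 6.43 to 0.107 ± 0.0143 (-4.25, SE 0.20, adjusted p = 5.72e-07), and it left the gene lower in KO than any other member. Zfp35 went from 91.0 and 74.4 in WT to 5.75 and 6.06 in KO, and read 75.6 and 80.4 in EE_KO (-3.59). Zfp37 went from 14.8 and 20.3 to 1.20 and 1.18, and read 17.9 and 20.4 in EE_KO (-3.07). Zfp105 read 31.2 and 31.3 in WT, 3.40 and 4.49 in KO, and 24.4 and 24.3 in EE_KO (-2.72). For each of these 4, both KO libraries were below every WT and EE_KO library. The pachytene and spermatid marker sums given above both fell in the same KO libraries, and their part was not tested.

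The other large falls were Zfp39, Zfp438 and Zfp646. Zfp39 (chr11:58888153-58904225, minus strand), whose promoter is shown above and whose protein has a KRAB-like pattern and 12 C2H2 patterns, stood at 48.8 and 40.5 FPKM in WT, 2.33 and 1.86 in KO, and 40.3 and 41.9 in EE_KO (-3.88, SE 0.14, adjusted p = 1.46e-07). Zfp438 fell from 27.1 and 26.6 to 2.10 and 2.04 (-3.18), and Zfp646, with 27 C2H2 patterns, from 61.5 and 54.8 to 6.26 and 5.10 (-3.15). In EE_KO they read 28.9 and 32.3, and 49.1 and 47.9, again above both KO libraries.

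At the other end stood Zfp36, known as tristetraprolin, an immediate early gene whose protein binds AU-rich elements in messenger RNA and speeds its decay. It stood at 7.93 and 9.71 FPKM in WT, 218 and 178 in KO, and 19.7 and 7.57 in EE_KO. The KO libraries were far above the others, and the EE_KO libraries differed from each other by more than the WT pair (8.82 ± 1.26 in WT, 198 ± 28.0 in KO, log2 change 4.34, SE 0.36, adjusted p = 8.71e-06). Zfp703, a corepressor of the NET family, stood at 1.94 and 2.22 in WT, 46.4 and 40.2 in KO, and 4.61 and 2.90 in EE_KO (3.84, SE 0.19, adjusted p = 7.12e-07). Neither protein has a C2H2 or a KRAB-like pattern.

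Zfp395, Zfp579, Zfp362 and Zfp219 completed the large autosomal rises. Zfp395 stood at 1.90 and 1.79 FPKM in WT, 21.2 and 19.1 in KO, and 2.55 and 1.23 in EE_KO (2.90, SE 0.22, adjusted p = 5.9e-06). Zfp579 rose from 0.764 ± 0.159 to 9.19 ± 0.254 (2.53), Zfp362 from 1.85 ± 0.105 to 15.4 ± 1.16 (2.52) and Zfp219, a transcription factor, from 5.25 ± 1.05 to 31.3 ± 0.587 (2.38). In each, both KO libraries were above all WT and EE_KO libraries. Among those not named by the size of their rise in this comparison but by their fall in EE_KO against KO, Zfp740 and Zfp46 read 2.36 ± 0.165 and 1.46 ± 0.0621 in WT and 15.6 ± 1.01 and 10.6 ± 0.884 in KO. The Sertoli and Leydig marker sums were high in the same KO libraries.

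**Figure D2:**
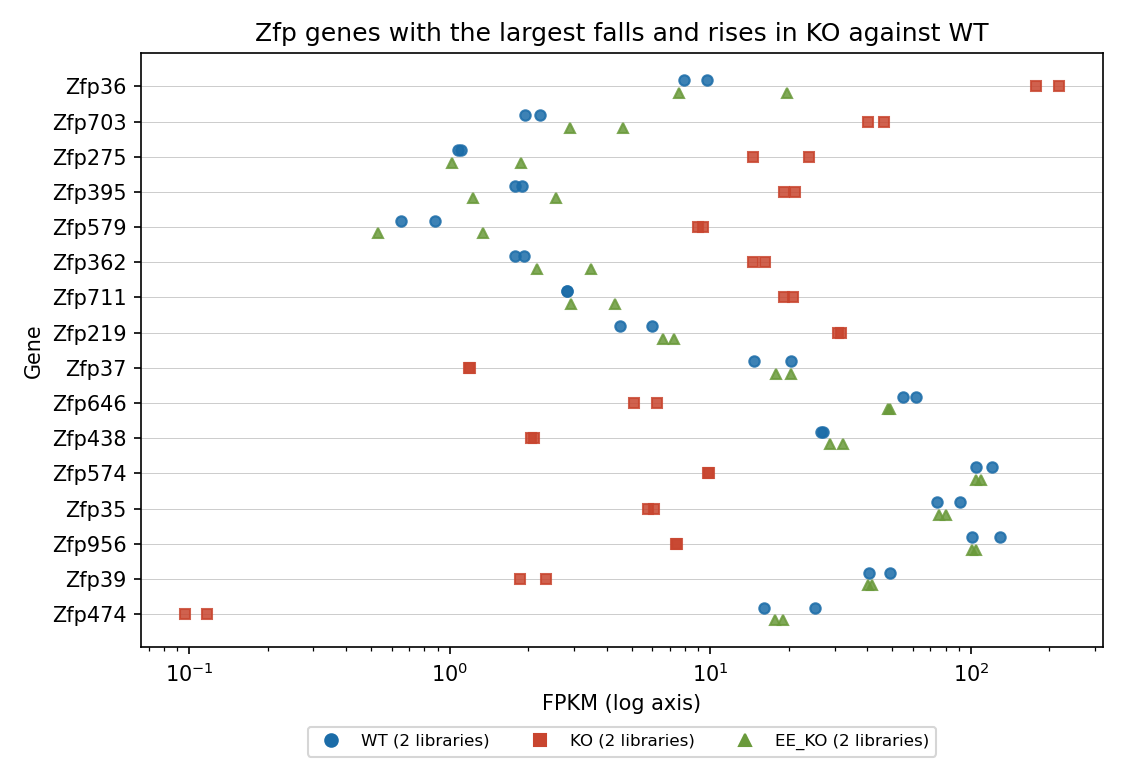
FPKM (log axis) of the 8 Zfp genes with the largest rises and the 8 with the largest falls in KO against WT, with each of the 6 libraries as a point (WT circles, KO squares, EE_KO triangles). In every gene the 2 KO squares stand apart from the WT and EE_KO points, from 0.0965 FPKM in Zfp474 to 218 in Zfp36.

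The X chromosome, which pachytene cells silence, carries 3 of the 225 genes, and all 3 rose in KO. Zfp275 (chrX:73342621-73359080, plus strand) stood at 1.08 and 1.11 FPKM in WT, 24.0 and 14.6 in KO, and 1.87 and 1.02 in EE_KO (log2 change 3.24, SE 0.26, adjusted p = 7.3e-06). Zfp711 (chrX:112600526-112635070, plus strand), a transcription factor of CpG island promoters, read 2.83 and 2.82, then 20.9 and 19.2, then 4.32 and 2.91 (2.46, SE 0.17, adjusted p = 3.65e-06). Zfp185 (chrX:72987339-73031543, plus strand) read 1.31 and 1.66, then 7.49 and 5.71, then 1.68 and 1.62 (1.61, SE 0.17, adjusted p = 4.03e-05). The KO libraries were above the others for each.

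Of the 222 autosomal Zfp genes, 72 rose and 97 fell, with a median log2 change of -0.16 beside 2.46 for the 3 X-linked genes, a difference of 2.62. With TPM the autosomal split was 99 up and 79 down (median 0.14), with quantile scaling 92 and 81 (median 0.09), and the 3 X-linked genes still rose (median 2.85). Over all genes tested, 395 of 537 X-linked genes rose and 115 fell (median 1.95), and the autosomal median was -0.34. The median FPKM of the 3 X-linked genes was 1.31 and 1.66 in WT, 20.9 and 14.6 in KO, and 1.87 and 1.62 in EE_KO. With only 3 genes, and no test of the difference, this describes those genes alone.

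By known role, the silencing factors split. The list of 7 factors of retroelement and imprint silencing had 4 rises and 3 falls (median 0.47), where 38% and 48.1% of all genes tested rose and fell. Zfp57, which protects imprints through embryonic development, fell from 3.51 and 4.78 FPKM to 0.4999 and 0.806, and read 3.93 and 4.29 in EE_KO (-1.63, SE 0.18, adjusted p = 5.23e-05). Its partner in that role, Zfp445, read 16.2 and 13.7 in WT and 23.2 and 22.8 in KO, a rise of 0.59 (adjusted p = 0.00242). Zfp42, the pluripotency marker Rex1, fell from 15.5 ± 1.99 to 2.24 ± 0.202 (-2.35), and Zfp638 fell by 0.37, a call lost with quantile scaling (-0.20) and turned in sign with TPM (0.02). Zfp568 rose from 1.47 ± 0.0507 to 5.21 ± 0.121 (1.33), Zfp932 from 0.877 ± 0.159 to 5.22 ± 0.0381 (1.73), and Zfp809, which silences murine leukaemia virus, from 3.11 ± 0.549 to 4.68 ± 0.159 (0.47).

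The partners through which KRAB proteins act went both ways as well, with 6 of 18 higher in KO, 8 lower and 4 not called (median -0.24), shares near the 38% higher and 48.1% lower among all genes tested. That median was 0.14 with TPM (8 higher, 5 lower) and 0.08 with quantile scaling (7 higher, 5 lower). Trim28, the corepressor that binds KRAB, stood at 223 and 207 FPKM in WT, 75.9 and 91.0 in KO, and 216 and 226 in EE_KO (-1.36, adjusted p = 1.36e-05, but -0.92 with TPM and -0.47 with quantile scaling, called in both). Uhrf1, which reads hemimethylated DNA, fell from 51.5 and 48.5 to 9.32 and 9.57 (-2.29), and Cbx5, a heterochromatin protein 1, fell by 1.27. Setdb1, the H3K9 methyltransferase, fell by 0.35 (adjusted p = 0.0249), but stood at 0.06 with TPM and 0.04 with quantile scaling, not called in either, while the DNA methyltransferase Dnmt3a rose by 2.14 and the remodeller Smarcad1 by 1.57.

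Among 8 Zfp proteins of RNA and ribosome biology, 5 rose, 2 fell and 1 did not pass the test (median 0.96, where 38% of all genes tested rose and 48.1% fell), and Zfp36 was the largest rise. Zfp622, a factor of large ribosomal subunit assembly, rose from 2.73 ± 0.442 to 16.6 ± 0.184 FPKM (2.25), and Zfp106, an RNA-binding protein, from 4.84 ± 0.282 to 16.4 ± 2.04 (1.58). Zfp346, which binds double-stranded RNA, fell from 29.7 ± 1.88 to 10.3 ± 0.0237 (-1.44), and Zfp598, the ligase that senses collided ribosomes, read 23.6 ± 1.22 in WT and 23.2 ± 1.92 in KO and was not called, but was called higher with TPM (0.40) and with quantile scaling (0.48). Zfp593 and Zfp473 of the same list lay below a mean of 1 FPKM.

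Of 3 spindle, ubiquitin and SUMO factors, 2 fell. Zfp91, a ubiquitin ligase, fell from 47.5 ± 5.66 to 17.2 ± 0.362 FPKM (-1.41), and Zfp451, a SUMO ligase, from 16.2 ± 1.88 to 8.27 ± 0.461 (-0.88). Zfp207, which binds the spindle checkpoint protein Bub3, read 20.6 ± 0.858 in WT and 22.4 ± 1.49 in KO (0.12, adjusted p = 0.329), but was called higher with TPM (0.54) and with quantile scaling (0.60).

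The 18 transcription factors and chromatin cofactors held 9 rises, 5 falls and 4 not called (median 0.55), beside 38% rising and 48.1% falling among all genes tested. The split was 12 and 4 with TPM (median 0.94) and 11 and 5 with quantile scaling (median 0.83). Zfp711 and Zfp219, above, were the largest rises. Zfp148 rose from 2.31 ± 0.487 to 8.46 ± 1.55 FPKM (1.51) and Zfp281, known from pluripotent cells, from 7.26 ± 0.459 to 14.9 ± 2.20 (0.94). Zfp318, first described as a testis zinc finger protein, fell from 41.0 ± 5.38 to 9.53 ± 0.368 (-1.99), and Zfp608 fell from 16.7 and 15.8 in WT to 4.64 and 3.93 in KO (-1.71). Zfp143 read 3.70 ± 0.330 in WT and 3.27 ± 0.302 in KO. Zfp521 lay below the mean of 1 FPKM.

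Split by sequence, the 89 genes with a KRAB-like pattern gave 26 rises and 40 falls, with log2 changes from -3.88 to 2.18. Among all genes tested 38% rose and 48.1% fell. The 136 without one gave 49 rises and 57 falls, from -4.25 to 4.34. With TPM the splits were 38 and 33, and 64 and 46, and with quantile scaling 35 and 31, and 60 and 50. The 33 proteins with 16 or more C2H2 patterns gave 5 rises and 21 falls (median -0.69, or 10 and 15 with TPM and 9 and 16 with quantile scaling), beside 25 and 23 for the 66 with 11 to 15 (median 0.07, or 34 and 19 with TPM). The difference between these classes was not tested.

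Zfp genes lie in groups along the chromosomes, and 32 clusters of at least 3 protein-coding Zfp genes, no more than 500 kb apart, held 223 of the 365 genes and 121 of the 225. Of the clustered genes 54.3% reached the mean of 1 FPKM, against 73.2% of the 142 outside clusters. Over all genes tested 38% rose and 48.1% fell, the shares to set beside the counts that follow, whose differences were not tested. Chromosome 7 alone carries 61 of the 225, of which 20 rose and 29 fell. Clustered genes had 36 rises and 52 falls and the other 104 had 39 and 45, which became 50 and 41, and 52 and 38, with TPM, and 46 and 40, and 49 and 41, with quantile scaling. With a gap of 250 kb the clusters held 100 of the 225 and with 1000 kb they held 130, and 18 clusters had 3 or more of the 225 genes while 5 had none.

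Within clusters the neighbours often differed in direction, where 38% of all genes tested rose and 48.1% fell. In the chromosome 7 cluster from 24.08 to 25.23 Mb, all 7 genes fell (median -1.73, with 6 of them called with TPM), led by Zfp574 and Zfp526, with a smallest fall of 0.52 in Zfp180. The 3 genes on chromosome 16 from 3.74 to 3.88 Mb also all fell (median -1.01, with 2 called with TPM). Falls without a called rise were also seen on chromosome 4 (6 of 8 genes) and chromosome 18 (2 of 3). The same held on chromosome 13 from 67.04 to 67.83 Mb (3 of 4) and chromosome 7 from 12.42 to 12.99 Mb (2 of 5). The chromosome 7 cluster from 29.77 to 30.17 Mb had 6 rises and 1 fall among 9 genes (median 0.52), and Zfp382 fell by 2.39 there, from 12.8 and 18.5 FPKM to 2.06 and 2.23, while Zfp146 rose by 1.91, from 1.77 and 2.51 to 10.98 and 10.4. Zfp36 sits in a cluster of 5 in which the other 4 fell, 2 of them also with TPM. On chromosome 17 from 21.01 to 23.60 Mb, 8 of 14 fell and 3 rose (7 and 4 with TPM), and on chromosome 7 from 127.23 to 127.89 Mb, 5 of 8 fell and 3 rose (4 and 3 with TPM), Zfp646 and Zfp553 lying at the ends of the latter with -3.15 and 2.12. The largest change of the chromosome 6 cluster was that of Zfp956.

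**Figure D3:**
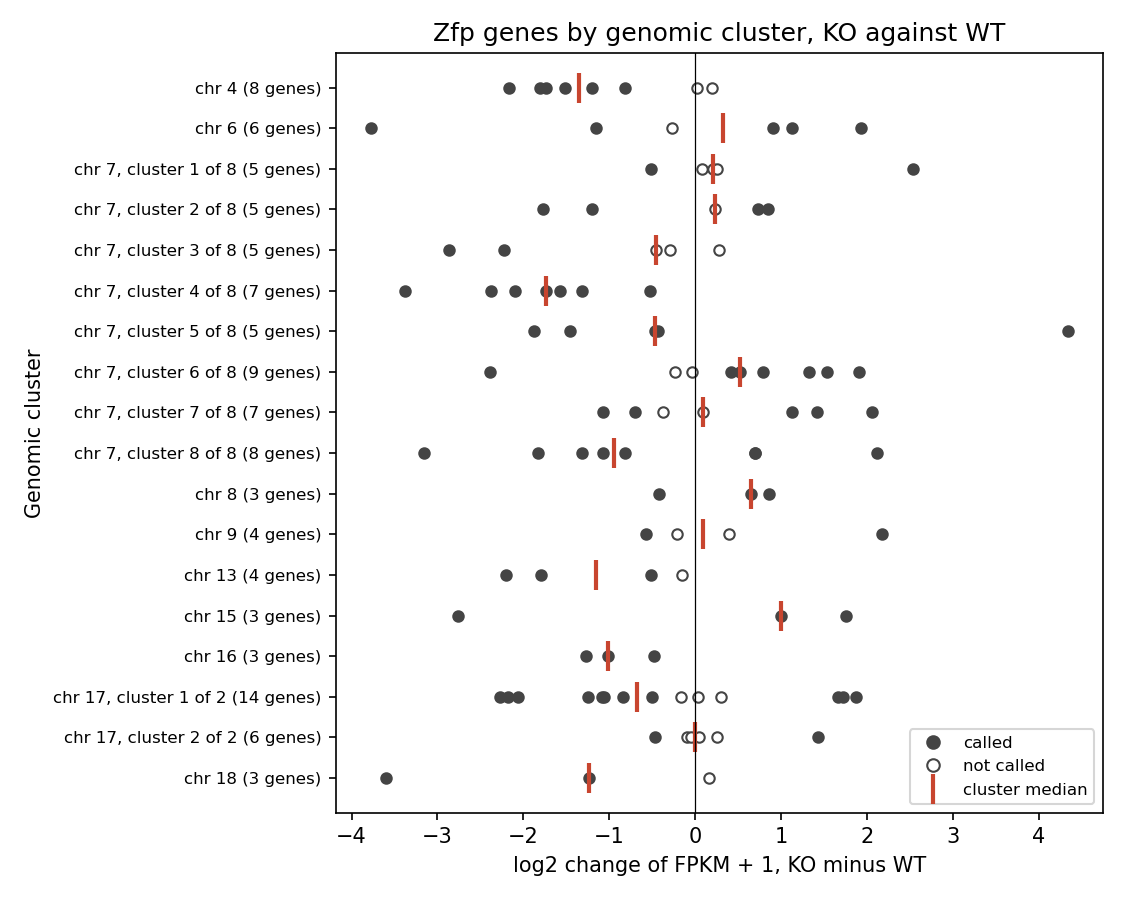
Log2 change of FPKM + 1 in KO against WT (horizontal axis) for the Zfp genes of the 18 clusters with 3 or more of the 225 genes, each point a gene, filled where called and open where not, and the red bar the cluster median. All 7 genes of the fourth of the 8 chromosome 7 clusters lie below 0, while most clusters hold points on both sides.

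EE_KO was close to WT for nearly all Zfp genes. None was lower in EE_KO by limma with Benjamini-Hochberg adjustment, and the 1 past the threshold was Zfp990, which is higher in EE_KO and was picked for that, where 0.0195% and 0.026% of all genes tested were called lower and higher. Its call restates that choice and lends it no support, whichever fit is used. At an unadjusted p below 0.05 there were 15 (6.67%, against 7.48% of all genes), and recovered reads analysed with voom also gave 1 higher and 0 lower. The single call was lost when either WT library or either KO library was left out, which gave 0. The median log2 change was 0.02 and the quartiles were -0.08 and 0.14. The libraries did not overlap for 91 genes (40.4%, against 36.5%).

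Against KO, which is the same set of KO libraries used above, 100 of the 225 rose in EE_KO (44.4%, where 47.8% of all genes did) and 74 fell (32.9%, against 37.8%), with 24 rises (10.7%, against 19.7%) and 16 falls (7.11%, against 12.6%) of at least 2 on the same scale and a median of 0.24 beside 0.26 over all genes. The split became 83 up and 93 down with TPM and 81 up and 91 down with quantile scaling. Side by side, Zfp474 changed by -4.25 in KO against WT and by 4.13 in EE_KO against KO. Zfp39 changed by -3.88 and 3.77, Zfp36 by 4.34 and -3.89, and Zfp275 by 3.24 and -3.03. The 2 comparisons share the KO libraries, so that opposite signs are built in. Against WT the same 4 genes differed in EE_KO by -0.13, -0.11, 0.45 and 0.20, and none was called.

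Zfp990 (ENSMUSG00000078503, chr4:145510759-145539188, plus strand) is the exception. It was picked for its difference between EE_KO and WT, so that its call above is no support, and its levels are given as a description. It stood at 0.204 and 0.208 FPKM in WT, 0.207 and 0.247 in KO, and 5.39 and 5.004 in EE_KO, so that both EE_KO libraries were far above the other 4. In recovered reads these were 10 and 11, 13 and 15, and 276 and 262. The EE_KO mean was 25.2 times the WT mean (error 1.35 from the spread of the libraries) while the WT and KO libraries overlapped. That error leaves out the counting noise of the 10 and 11 WT reads, so that the ratio is less certain than it implies. Zfp990 encodes a KRAB-like pattern and 13 C2H2 patterns, and it is the only one of the 225 genes that reached the mean of 1 FPKM through EE_KO alone.

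Several neighbours of Zfp990 read lower in EE_KO than in WT, none of them past the test. The chromosome 4 cluster spans 2.34 Mb and holds 18 Zfp genes, with Zfp990 the first of them in chromosome order. Of the 18, 8 are among the 225, and all 8 carry a KRAB-like pattern. Zfp993 stood at 11.4 and 9.33 FPKM in WT and at 2.89 and 4.61 in EE_KO, with 1.96 and 1.13 in KO. Zfp991 stood at 12.9 and 9.49 in WT, 5.27 and 5.06 in EE_KO, and 4.05 and 2.53 in KO. Zfp992 stood at 15.4 and 10.8 in WT, 6.41 and 6.12 in EE_KO, and 3.54 and 2.48 in KO. In all 3 both EE_KO libraries lay between the WT and the KO libraries.

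The log2 changes in EE_KO against WT were -1.27 for Zfp993 (SE 0.24, adjusted p = 0.185), -0.97 for Zfp991 (SE 0.21, adjusted p = 0.231) and -0.93 for Zfp992 (SE 0.20, adjusted p = 0.229), and none passed the test. Zfp979 read 3.68 and 1.83 in WT and 1.40 and 1.37 in EE_KO (-0.61, adjusted p = 0.584). Zfp981 and Zfp982 differed by -0.32 and -0.33, and Zfp933, at the far end of the cluster, by -0.05. Of the 8 genes, 5 were lower in both EE_KO libraries than in both WT libraries and 1, Zfp990, was higher, while among the other 217 genes 25 were lower and 60 higher. The changes of those 217 ran from -0.71 (Zfp93) to 0.67 (Zfp771), so that Zfp993, Zfp991 and Zfp992 lay below all of them. Of the 25 genes of any kind tested within the span, 15 were lower in both EE_KO libraries and 3 higher (median -0.33), where 19.8% and 16.7% of all genes tested were.

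**Figure D4:**
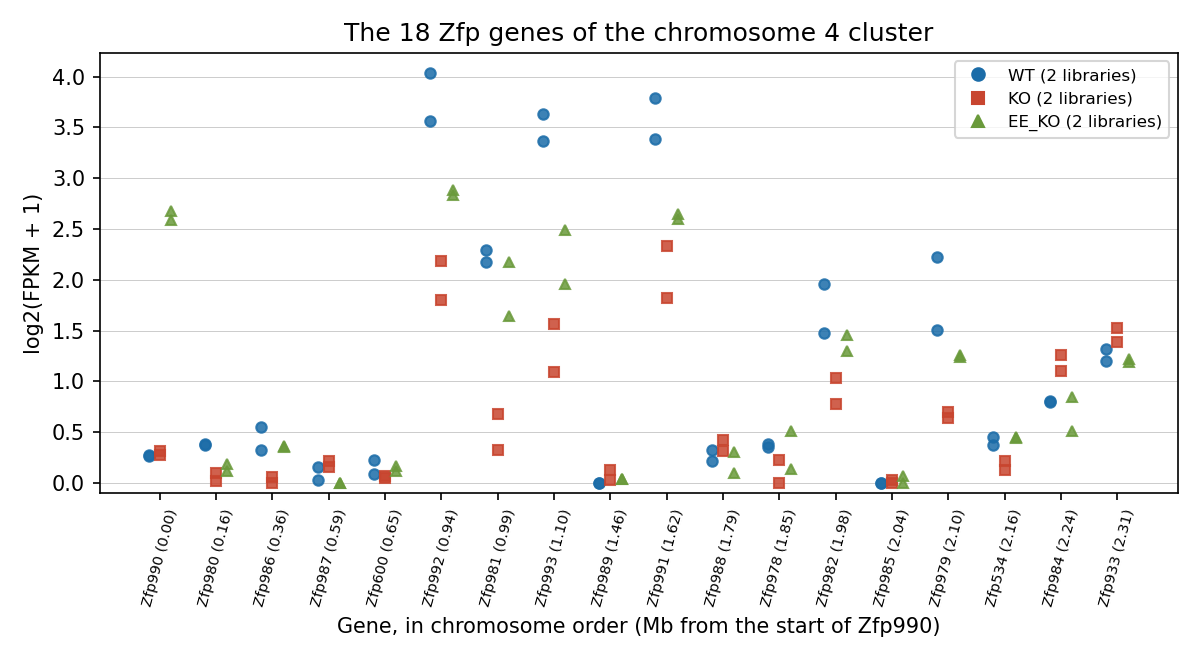
Level of the 18 Zfp genes of the chromosome 4 cluster, as log2(FPKM + 1), in chromosome order with the distance of each from the start of Zfp990 in Mb, each point a library (WT circles, KO squares, EE_KO triangles). At Zfp990 both EE_KO triangles stand above the rest, and at Zfp992, Zfp993 and Zfp991 they lie between the WT and KO points.

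**Figure D5:**
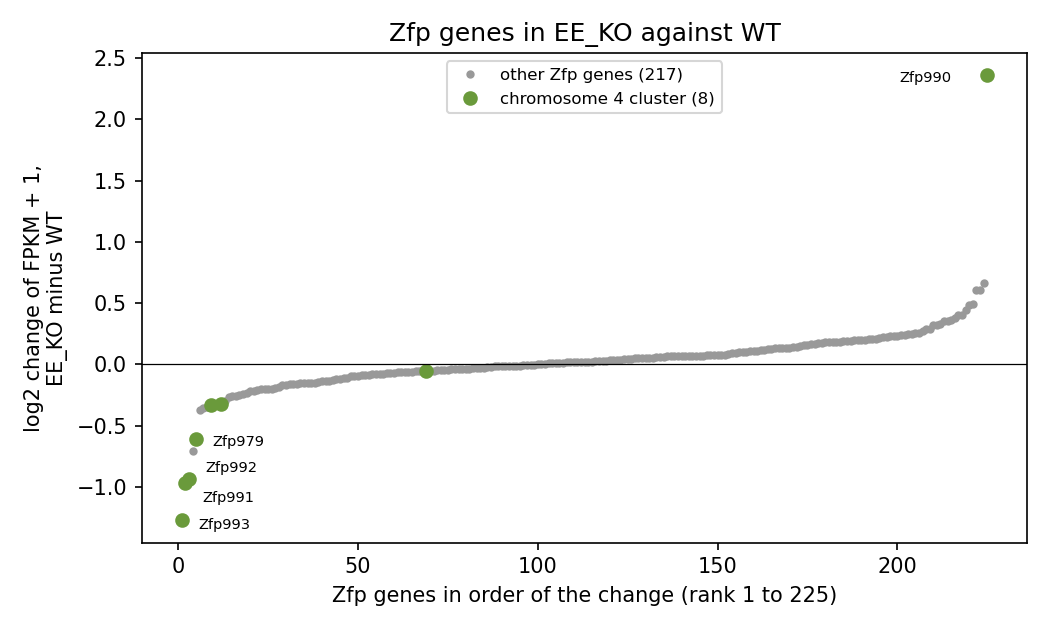
Log2 change of FPKM + 1 in EE_KO against WT for the 225 Zfp genes in order, with the 8 genes of the chromosome 4 cluster in green and the other 217 in grey. Zfp990, at 2.36, lies far above the rest, and Zfp993, Zfp991 and Zfp992 are the 3 lowest.

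In KO against WT, 6 of the 8 chromosome 4 genes fell, from -0.81 for Zfp982 to -2.17 for Zfp993 (SE 0.24, adjusted p = 4.44e-05), and the call for Zfp982 was lost with quantile scaling (-0.43). Zfp933 did not pass the test, but was called higher with TPM (0.47) and with quantile scaling (0.52). Zfp990 was not called either (0.02), nor with TPM (0.11), and was called higher with quantile scaling (0.53). The other 10 Zfp genes of the cluster lay below the mean of 1 FPKM. Zfp984 reached the highest level among these, 1.40 FPKM in 1 KO library, while Zfp985 and Zfp989 were listed at 0 in both WT libraries. In EE_KO against KO Zfp981 rose by 1.41 (SE 0.22, adjusted p = 0.000398), and the changes of Zfp993, Zfp992, Zfp991 and Zfp979 were 0.90, 0.87, 0.55 and 0.58, all past the test. Zfp982 (0.48) and Zfp933 (-0.25) did not pass it. The call for Zfp993 was lost without the second KO library (0.66). That for Zfp991 was lost without the second KO library (0.29), without either EE_KO library (0.52 and 0.57), with TPM (0.23) and with quantile scaling (0.44). That for Zfp979 was lost when any KO or EE_KO library was left out (0.55 to 0.61) and with TPM (0.40), and its sign turned with quantile scaling (-0.011).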

How the data were processed

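RNA sequencing of 6 libraries, 2 per group, was analysed from the deposited FPKM values, which the authors computed per gene and library (unit per the file headers). The submitters' processing notes name GRCm38 and mm10, while the tools for alignment and counting, the gene models and the strand were not given in the sources used here. Symbols, positions and transcripts were taken from GENCODE M21, which matched 54495 of 54532 genes. Multiplied by exon length, 96.8 to 97.0% of values above 0 gave whole reads (tolerance 0.01). 11 of the 225 Zfp genes did not, and overlapping or antisense genes cannot be separated without strand.

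Genes with a mean of at least 1 FPKM were tested, 15368 in all, after 533 short RNA genes and 6 repeated symbols were left out. limma 3.58.1 (R 4.3.3) was fitted to log2(FPKM + 1) of all 6 libraries with group as the only term and a mean-variance trend. Benjamini-Hochberg adjustment ran over all genes tested, with 0.05 as the threshold. A log2 change is on the log2(FPKM + 1) scale, which understates changes of low genes. The fit was tried on simulated data in which far fewer genes changed than were called here and all genes had the same spread. That trial does not show how the fit behaves on data such as these. C2H2 patterns were C-X(2 to 4)-C-X(12)-H-X(3 to 5)-H, counted without overlap. Tables used Python 3.11.15, pandas 2.3.3 and numpy 2.4.6, and plots matplotlib 3.10.9.

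The members, the gene lists and the rule for naming genes were chosen with earlier results of these data known. Named are the 8 largest rises and falls per comparison, the 5 highest in WT, the genes next to the limit, the chromosome 4 cluster, the largest change per cluster with 3 or more of the genes, X-linked genes, and up to 4 per role list. Others were named after their values were seen: the named partners of KRAB proteins, and Zfp445, Zfp809, Zfp638, Zfp598, Zfp148, Zfp281, Zfp143, Zfp628, Zfp771, Zfp146, Zfp526, Zfp180 and Zfp93. Alternatives were pseudocounts of 0.1 and 0.5, no filter, a mean of at least 5 FPKM, TPM, quantile scaling, only the groups compared, a replicate block, voom on recovered reads, cluster gaps of 250 and 1000 kb, and each library left out in turn.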

Additional observations from a re-analysis of the deposited data

How the results depend on the processing

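The counts of calls over all 225 genes moved beyond 1.5 times the reported value with a filter of at least 5 FPKM, which tested 95 of the 225 genes and gave 25 up and 55 down for KO against WT, then 57 up and 25 down for EE_KO against KO, and in the comparison of EE_KO with WT. There the single call up became 0 with no filter, with a mean of at least 5 FPKM (where Zfp990 was not tested) and with only the 2 groups compared, and ranged from 0 to 1 over libraries left out. The X-linked minus autosomal difference, 2.62 as reported, was 2.98 and 2.80 with pseudocounts of 0.1 and 0.5, 3.73 with a mean of at least 5 FPKM, 2.71 with TPM, 2.72 with quantile scaling and 3.08 with voom on recovered reads, and ranged from 2.59 to 2.65 over libraries left out. Of 1560 alternative values of 107 called values of genes named by the rule, 1534 kept direction and call. Another 25 kept direction and lost the call. The 1 that reversed was Zfp979 in EE_KO against KO, 0.58 as reported and -0.011 with quantile scaling. The rule picked many of these genes for large called changes, which makes a call likely to hold. Outside them, Setdb1 in KO against WT (-0.35 as reported) turned in sign with TPM (0.06) and quantile scaling (0.04). Zfp638 turned in sign with TPM. Smaller groups moved more: rises among the 33 proteins with 16 or more C2H2 patterns went from 5 to 10 with TPM, and falls among the KRAB partners from 8 to 5 with TPM and with quantile scaling. The causes were not tested. Where a group kept 1 library, it was assumed to vary like the others.

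The labels number the libraries 1 and 2 in each group without saying that a number marks a shared experiment. Deviations from the group means correlated by -0.03 (WT and KO), 0.05 (WT and EE_KO) and 0.09 (KO and EE_KO), so no pairing was assumed. With a replicate block the counts were 75 up and 95 down for KO against WT, 1 and 0 for EE_KO against WT, and 99 and 72 for EE_KO against KO. With 2 libraries per group, and 1 read worth at least 0.0278 FPKM over 2 kb, differences among genes near 0 were hardly measurable.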

Other observations

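Zinc finger genes with other names also went both ways in KO against WT. Of 33 Zbtb genes, whose proteins join C2H2 fingers to a BTB domain, 14 rose and 10 fell (median log2 change 0.15, or 19 and 9 with TPM), where 38% of all genes tested rose and 48.1% fell. Of 9 Zscan genes, with a SCAN domain, 3 rose and 5 fell (median -0.88), and of 9 Zkscan genes, with SCAN and often KRAB domains, 3 rose and 4 fell (median -0.18), a median that was 0.10 with TPM and 0.13 with quantile scaling. All were chosen by a mean of at least 1 FPKM over the 6 libraries. The somatic and spermatogonial marker sums were high in the same KO libraries, and their part was not tested.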
